A study of Mus musculus with 42 samples.

Results

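The collagen chain genes of the mouse were examined in subcutaneous Pan02 tumours, which are grown from a mouse pancreatic adenocarcinoma line. They were taken as every gene of the deposited table whose symbol has the form Col, a number, the letter a and a number. This gave 44 of the 47729 genes, and 39 of the 44 reached a value of 10 in at least 3 of the 42 libraries, as did 16613 of all genes. The 5 that did not reach it were Col2a1, Col4a3, Col9a1, Col10a1 and Col19a1.

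The tumours came from mice that the series design gives as C57BL/6, while the treatment protocol names C57BL/6J or Balb/c, given BXCL701 or vehicle (PBS), and RNA of the whole tumour was sequenced. BXCL701, also called talabostat, is a small-molecule inhibitor of post-proline peptidases, namely DPP4, DPP8, DPP9 and the fibroblast activation protein FAP. The labels give 20 ug per mouse by oral gavage, as a single dose in the day 1 groups and daily up to days 7 and 14 in the others. Harvest of BXCL701 tumours was at 1, 8 and 16 h for day 1, with 0 h added for days 7 and 14, while vehicle tumours of all 3 days were harvested at 0 h. Each of the 14 groups had 3 animals, and their age is not given. The hour was therefore matched to vehicle only at 0 h of days 7 and 14, and in every other comparison with vehicle the drug and the hour cannot be told apart. Values are scaled estimated reads, which summed to 19100000 to 26600000 per library. They are not whole reads, so the read depth behind them is unknown. Tumour epithelial genes were present throughout, with a median of 19797 scaled estimated reads for Krt8 and 10820 for Krt18, while Epcam had a median of 38.5 and was under 10 in 7 libraries. In bulk tumour RNA, fewer cells of a type and less RNA per cell cannot be told apart.

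Collagens are extracellular proteins in which 3 chains wind into a triple helix. Fibrillar chains (types I, II, III, V, XI, XXIV and XXVII) assemble into fibrils, and fibril-associated chains (FACIT) bind to the surface of those fibrils. Type IV forms the sheet of basement membranes, type VI forms beaded filaments around cells, type VII anchors epithelium to the tissue below, and the transmembrane chains sit in the cell surface. In solid tumours fibrillar collagens are made largely by fibroblasts, and type IV is laid down around vessels and epithelial nests.

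Several of the genes lie in pairs on the genome (GRCm38). Col4a1 (chr8:11198423-11312826, minus strand) and Col4a2 (chr8:11312805-11449287, plus strand) lie head to head, and their annotated genes share 22 bases. Col4a4 and Col4a3 lie head to head on chromosome 1 with 71 bases between them, and Col4a6 and Col4a5 on chromosome X with 1308. Col3a1 (chr1:45311538-45349706, plus strand) and Col5a2 (chr1:45374321-45503282, minus strand) lie tail to tail, 24614 bases apart. Col6a2 and Col6a1 follow each other on chromosome 10 with 85161 bases between them. The promoters of 5 chains are shown because the results turn on them: Col1a2 and Col3a1 for the abundant fibrillar chains, the Col4a1 and Col4a2 pair, and Col20a1 as the chain called between BXCL701 and vehicle. Each window runs from 250 bases before to 50 after the RefSeq start (GRCm38.p6), 5′ to 3′ on the strand of the gene. Capitals mark 3 motifs, searched on both strands: the CCAAT box (read as ATTGG on the other strand), the GC box GGGCGG (read as CCGCCC) and the TATA motif TATAAA (read as TTTATA). The windows are chr6:4505368-4505667 (plus strand) for Col1a2, chr1:45311288-45311587 (plus) for Col3a1, chr8:11312777-11313076 (minus) for Col4a1, chr8:11312555-11312854 (plus) for Col4a2 and chr2:180986285-180986584 (plus) for Col20a1.
Col1a2: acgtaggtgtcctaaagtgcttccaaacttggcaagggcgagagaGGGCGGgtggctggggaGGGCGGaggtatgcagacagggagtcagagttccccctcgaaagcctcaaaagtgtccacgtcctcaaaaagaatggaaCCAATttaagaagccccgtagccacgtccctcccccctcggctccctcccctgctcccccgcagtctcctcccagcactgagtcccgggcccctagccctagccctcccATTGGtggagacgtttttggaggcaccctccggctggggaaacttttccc
Col3a1: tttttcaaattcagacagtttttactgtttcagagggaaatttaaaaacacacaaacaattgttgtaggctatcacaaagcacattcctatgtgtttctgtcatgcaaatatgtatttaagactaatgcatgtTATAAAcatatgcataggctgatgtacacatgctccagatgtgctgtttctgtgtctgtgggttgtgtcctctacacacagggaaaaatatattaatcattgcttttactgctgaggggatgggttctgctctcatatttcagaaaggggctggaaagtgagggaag
Col4a1: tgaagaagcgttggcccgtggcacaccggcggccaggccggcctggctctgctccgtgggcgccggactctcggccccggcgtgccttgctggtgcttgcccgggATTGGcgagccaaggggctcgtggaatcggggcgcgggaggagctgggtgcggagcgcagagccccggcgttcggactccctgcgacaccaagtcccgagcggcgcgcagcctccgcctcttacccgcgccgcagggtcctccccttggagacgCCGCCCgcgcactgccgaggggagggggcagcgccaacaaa
Col4a2: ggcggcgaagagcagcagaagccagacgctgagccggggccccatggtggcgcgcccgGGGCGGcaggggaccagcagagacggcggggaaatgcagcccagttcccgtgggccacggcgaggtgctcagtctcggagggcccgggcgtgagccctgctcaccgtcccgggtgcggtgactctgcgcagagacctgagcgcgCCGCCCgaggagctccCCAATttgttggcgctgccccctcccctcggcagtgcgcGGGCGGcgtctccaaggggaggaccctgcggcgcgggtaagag
Col20a1: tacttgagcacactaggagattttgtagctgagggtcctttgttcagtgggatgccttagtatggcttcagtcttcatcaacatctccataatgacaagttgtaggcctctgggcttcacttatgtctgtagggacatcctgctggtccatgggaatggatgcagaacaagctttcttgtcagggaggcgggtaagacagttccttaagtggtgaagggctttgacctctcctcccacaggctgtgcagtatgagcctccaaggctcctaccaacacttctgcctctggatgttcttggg
The Col4a1 and Col4a2 windows share 78 bases, read from opposite strands. The Col1a2 window held 2 matches to CCAAT and 2 to GGGCGG, and the Col3a1 window 1 to TATAAA. The Col4a1 window held 1 match to CCAAT and 1 to GGGCGG, the Col4a2 window 1 and 3, and the Col20a1 window none of the motifs. The table of promoters held 38 windows of 35 of the 44 genes, and GGGCGG was in 60.5% of them, against 35.6% of all 32817 windows of this length. CCAAT was in 34.2% of the collagen windows and 37.4% of all windows, and TATAAA in 13.2% and 13.6%. These matches describe letters only.

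Levels between genes were compared per length, in FPKM. The type I and type III chains were the highest of the 44: Col3a1 had a median of 768 FPKM over the 42 libraries (141 to 2044), Col1a1 686 (212 to 2291) and Col1a2 528 (35.1 to 2139). The ranges of these 3 overlapped over most of their length, so their order does not stand beyond the spread between libraries. The type VI chains came next, with a median of 332 FPKM for Col6a1, 258 for Col6a2 and 146 for Col6a3, together with Col18a1 at 252, whose product holds the endostatin fragment. Col5a1, a fibrillar chain that helps start type I fibrils, had a median of 95.6 FPKM, the FACIT chain Col12a1 91.6, Col4a1 86.6 and Col4a2 53.1. Col1a1, Col1a2 and Col3a1 together made up 24.4 to 71.6% of the summed FPKM of the 44 genes (median 56.5%). Col6a1, Col6a2 and Col6a3 made up 12 to 37.7% (median 20.1%) and Col4a1 with Col4a2 1.51 to 9.97% (median 3.79%). The 44 genes took 0.703 to 4.58% of the summed scaled reads of a library (median 1.74%).

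**Figure D1:**
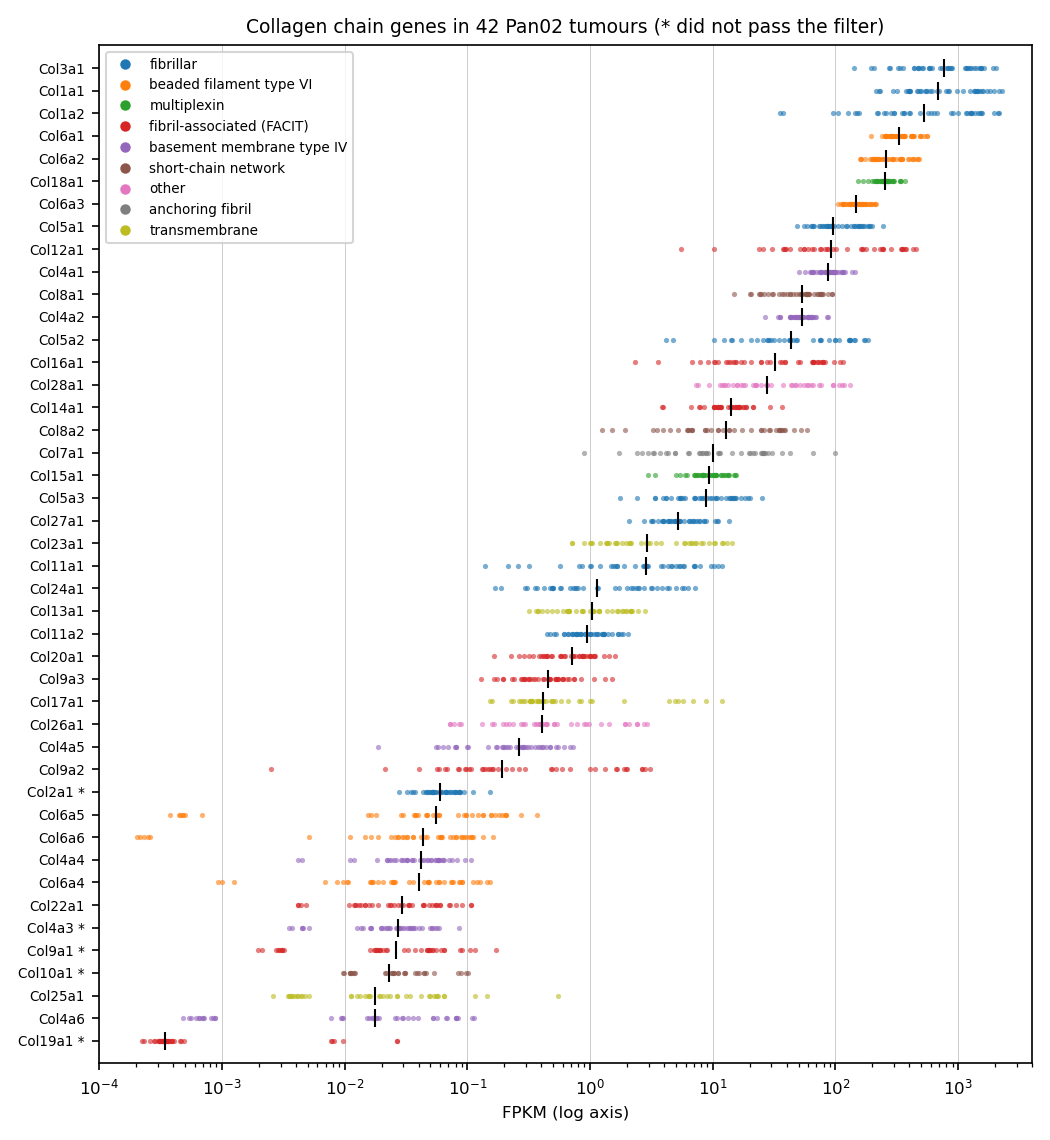
Level of each of the 44 collagen chain genes in FPKM (log axis); each point is 1 of 42 libraries, the black bar is the median, colours give the structural family and an asterisk marks the 5 genes that did not reach a value of 10 in 3 libraries. Col3a1, Col1a1 and Col1a2 lie furthest right, with medians of 768, 686 and 528 FPKM.

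Further down, Col8a1, a short-chain network collagen known from vessel walls, had a median of 53.2 FPKM. It was followed by Col5a2 (43.8 FPKM), Col16a1 (32.2), Col28a1 (27.6), Col14a1 (14.0), Col8a2 (12.8), Col7a1 (10.1), Col15a1 (9.26), Col5a3 (8.80), Col27a1 (5.17), Col23a1 (2.89), Col11a1 (2.86), Col24a1 (1.14) and Col13a1 (1.04). Col11a2 (0.942 FPKM), Col20a1 (0.711), Col9a3 (0.457), Col17a1 (0.414), Col26a1 (0.406), Col4a5 (0.266) and Col9a2 (0.192) had medians under 1. The scaled value was at least 10 in all 42 libraries for 28 chains. Among the other 11 that passed, it was at least 10 in 35 libraries for Col4a5, 31 for Col26a1, 29 for Col9a3, 23 for Col6a5, 22 for Col9a2, 19 for Col6a6, 17 for Col4a4, 8 for Col6a4, 6 for Col4a6, 5 for Col22a1 and 3 for Col25a1. By family, 10 of 11 fibrillar, 5 of 6 type IV, 6 of 6 type VI, 7 of 9 FACIT, 2 of 3 short-chain network and 4 of 4 transmembrane chains passed. So did Col7a1, both multiplexins (Col15a1 and Col18a1), Col26a1 and Col28a1. Types II, IX and X are best known from cartilage, and of their chains only Col9a2 and Col9a3 passed.

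The chains differed widely in how constant they were among tumours. Of the 28 at 10 or more in all libraries, 9 varied over 30-fold between the lowest and the highest library: Col17a1 (73.7-fold), Col7a1 (65.1), Col11a1 (64.5), Col1a2 (62.2), Col12a1 (51.0), Col8a2 (47.1), Col5a2 (42.9), Col16a1 (40.8) and Col24a1 (32.7). At the other end, 7 varied under 4-fold, which were Col18a1 (2.42-fold), Col4a1 (2.45), Col6a3 (2.53), Col6a1 (2.67), Col4a2 (2.90), Col6a2 (3.63) and Col11a2 (3.64). Much of the spread of the fibrillar chains lay between animals of a single group. Col1a1 had 46550, 48753 and 170163 scaled estimated reads in BXCL701 day 14 16 h tumours, against 60428, 29013 and 211586 in vehicle day 14 tumours. Each of these groups held a single tumour far above the other two.

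Most of the abundant fibrillar chains varied together from tumour to tumour, while the low-level Col11a2 did not follow Col1a1 (r = -0.0446). Across the 42 libraries (log2 values), Col1a1 had a Pearson's r of 0.969 and a Spearman's rho of 0.981 with Col1a2, and 0.945 and 0.935 with Col3a1. Col3a1 and its neighbour Col5a2 had 0.979 and 0.985, Col6a1 and Col6a2 0.963 and 0.961, and Col4a1 and Col4a2 0.881 and 0.824. Each of these had a permutation p of 1e-05, the smallest that 100000 resamples can give, with an adjusted p of 1.38e-05 for r over the 18 relations computed. Without the 2 libraries farthest from the median of the first gene, r was 0.966, 0.937, 0.979, 0.958 and 0.849 for the same pairs in the same order. As a description without a test, 27 other chains at 10 or more in every library were set beside Col1a1, and 8 had an r over 0.9 with Col1a1: Col1a2, Col16a1 (0.967), Col5a1 (0.963), Col8a2 (0.961), Col3a1, Col5a2 (0.941), Col23a1 (0.939) and Col12a1 (0.906). A further 8 lay between 0.7 and 0.9, and 11 at or under 0.7. Col28a1, a chain known from peripheral nerve, ran the other way, with an r of -0.806. Col6a3 (0.18) and Col18a1 (0.09) stood apart from Col1a1, whereas Col6a1 had an r of 0.866 with it. Col1a1 had an r of 0.844 (rho 0.858) with the mean of 12 fibroblast genes, 0.891 (rho 0.882) with Serpinh1, the collagen chaperone, and 0.778 (rho 0.779) with Fap, each with an adjusted permutation p of 1.38e-05 for r. Its r with the mean of 14 skeletal muscle genes was 0.607 (rho 0.573, adjusted permutation p = 2.4e-05), and without the 2 farthest libraries these values were 0.831, 0.877, 0.759 and 0.602. What these markers contribute to the collagen levels was not tested.

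Type IV did not follow type I. Col1a1 and Col4a1 had an r of -0.187 over the 42 libraries (rho -0.212, permutation p = 0.236), and -0.544 on deviations from the 14 group means (permutation p = 0.00017). Without the 2 libraries farthest in Col1a1 it was -0.22. Col4a2, the partner of Col4a1, had an r of 0.104 with Col1a1, and -0.0967 on those deviations, described without a test. The inverse value inside groups thus belongs to Col4a1 and was not seen for Col4a2. Col4a1 had an r of -0.253 with the mean of 10 endothelial genes (rho -0.31), with a permutation p of 0.106 for r (adjusted 0.112) and 0.0452 for rho (adjusted 0.0478), and the r was -0.446 on deviations from group means (permutation p = 0.00281). Both permutation p-values on deviations shuffled them over all 42 libraries as if independent, although 14 group means had been removed. They are therefore too small. The BXCL701 day 1 16 h group is an example chosen after its values were seen. Its Col1a1 values were 72319, 80038 and 223941 scaled estimated reads, while Col4a1 had 18554, 18960 and 11984 in the same tumours in the same order. The pair of tumours low in Col1a1 was the pair high in Col4a1. In vehicle day 14 tumours, by contrast, the one highest in Col1a1 (211586) was also the highest in Col4a1 (10417).

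**Figure D2:**
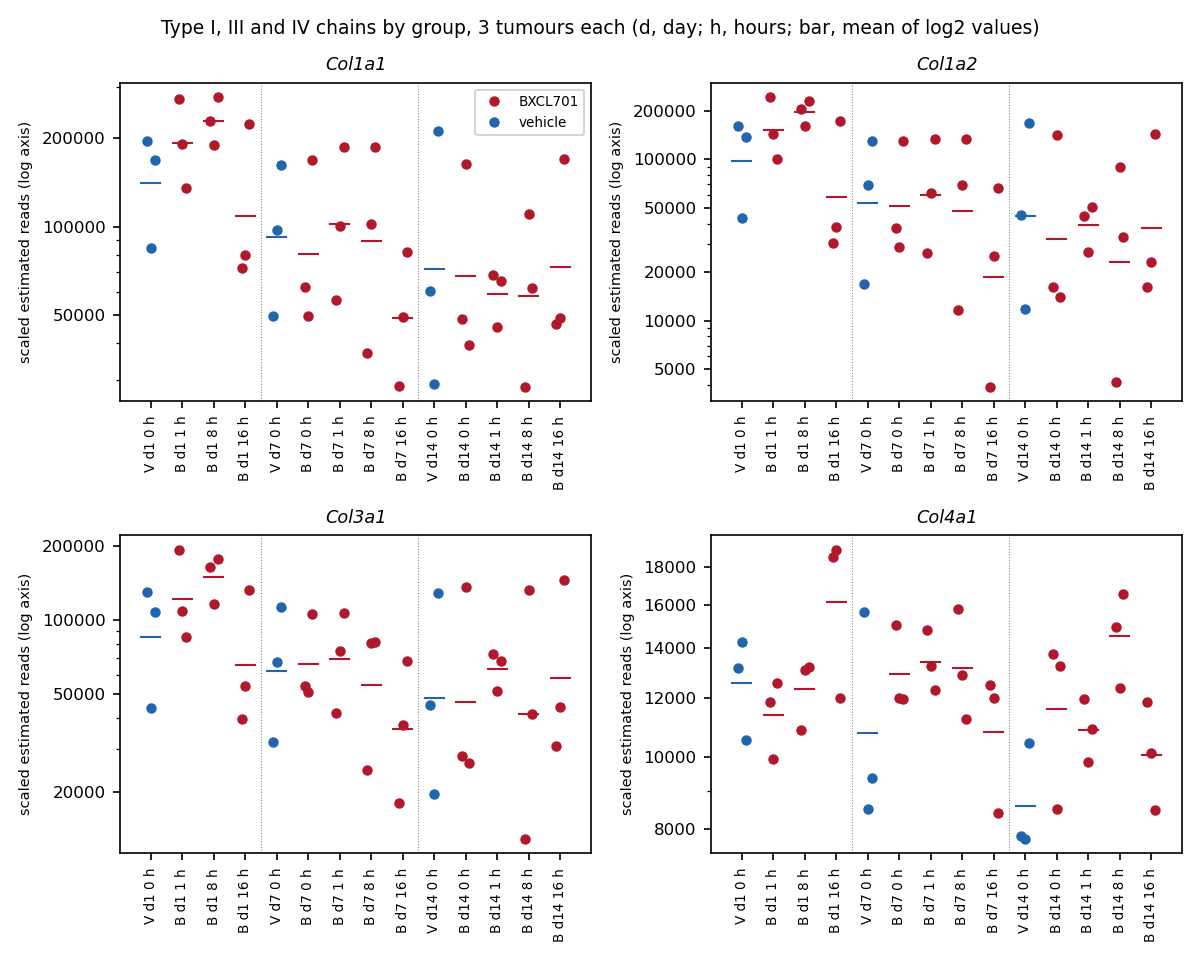
Scaled estimated reads (log axis) of Col1a1, Col1a2, Col3a1 and Col4a1 in each tumour of the 14 groups (B, BXCL701, red; V, vehicle, blue; d, day; h, hours; 3 tumours a group; bar, mean of log2 values). Col1a1 spans 28505 to 275862 and Col4a1 7755 to 18960, with wide spread inside most groups.

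Col17a1, the transmembrane chain of hemidesmosomes, was high in a few tumours from several groups. It had 458 to 1198 scaled estimated reads in 7 libraries and 16.2 to 177 in the other 35. Those 7 came from BXCL701 groups of days 1, 7 and 14 and from vehicle groups of days 7 and 14. Among the 35, it had an r of 0.744 with the mean of 11 keratinocyte genes (rho 0.537, permutation p = 1e-05 for r, the smallest possible, and 0.00102 for rho), and 0.568 without the 2 libraries farthest from its median. Among the 7, r was 0.621 (rho 0.643, exact permutation p = 0.114 and 0.139), and 0.0913 without 2 of them, so the relation there rests on those. Both were computed after the values were seen. Summed over those 11 genes, the libraries held 613 to 24168 scaled estimated reads, with Krt1 listed at 0 in 24 libraries, Dsc3 in 24 and Dsg3 in 27. The median sum was 1490. Trp63 had a median of 928 over the 42 libraries and Sbsn 162, against 29.3 for Krt5 and 32.6 for Krt14. The lower sums are therefore little measure of Krt5 or Krt14.

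The first question was whether BXCL701 tumours differed from vehicle tumours in their collagens. On day 14 Col20a1, a FACIT chain expressed at low level, rose in BXCL701 tumours, and none of the abundant chains passed the test. Col20a1 had a lowest, median and highest value of 46.0, 72.9 and 122 scaled estimated reads in the 12 BXCL701 day 14 tumours, against 14.2, 45.2 and 53.2 in the 3 vehicle day 14 tumours. The groups overlapped, but 10 of the 12 BXCL701 tumours lay above all 3 vehicle tumours. The log2 difference was 1.14 ± 0.31 (SE), with an adjusted p of 0.0342 (limma, over 16613 genes), and the mean log2 levels were 6.22 ± 0.41 (SD, n = 12) and 5.07 ± 1.00 (SD, n = 3). Col20a1 was the only call among the 39 chains tested, while 3.29% of all genes were called (547 genes; 2.26% higher and 1.03% lower). The chains leaned neither way: 18 were higher and 21 lower, with a median log2 difference of -0.08, against -0.01 over all genes.

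The Col20a1 call rested on single libraries. Without the first vehicle day 14 tumour the difference was 0.57 (adjusted p = 0.395), and without the second 1.37 (adjusted p = 0.302), where 1 gene of all those tested was called in place of 547. It was also lost without the third BXCL701 day 14 0 h tumour (adjusted p = 0.0525) and the first at 16 h (adjusted p = 0.0511). Without the third vehicle day 14 tumour, the collagen-rich one, 4 chains were called: Col20a1 (1.49), Col14a1 (1.65), Col11a2 (0.85) and Col4a2 (0.66).

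The other chains did not pass on day 14. Col11a2, a fibrillar chain of the type XI family, had 70.5, 118 and 223 scaled estimated reads (lowest, median, highest) in BXCL701 tumours, against 64.5, 65.4 and 89.7 in vehicle tumours, a log2 difference of 0.70 ± 0.20 (adjusted p = 0.0523). Here 9 of 12 BXCL701 tumours lay above all vehicle tumours. Col4a1 had 8489, 11879 and 16545 in BXCL701 tumours, against 7755, 7817 and 10417 in vehicle tumours (0.44 ± 0.17, adjusted p = 0.154), with 8 of 12 above all vehicle tumours. Col14a1, a FACIT chain of dense connective tissue, differed by 1.00 ± 0.37 (adjusted p = 0.130), Col4a2 by 0.37 ± 0.18 (0.288) and Col28a1 by 1.21 ± 0.69. On the lower side the smallest p-values belonged to Col13a1 (-0.83 ± 0.43, adjusted p = 0.318), Col26a1 (-1.80 ± 1.05, 0.392) and Col9a2 (-1.33 ± 0.84, 0.444). The type I and III chains differed by less than their standard errors: -0.17 ± 0.56 for Col1a1 (adjusted p = 0.932), -0.47 ± 0.92 for Col1a2 and 0.09 ± 0.60 for Col3a1. The 44 genes took 0.791, 1.28 and 3.23% of the library (lowest, median, highest) in BXCL701 day 14 tumours, against 1.27, 0.703 and 3.54% in the 3 vehicle day 14 tumours.

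**Figure D3:**
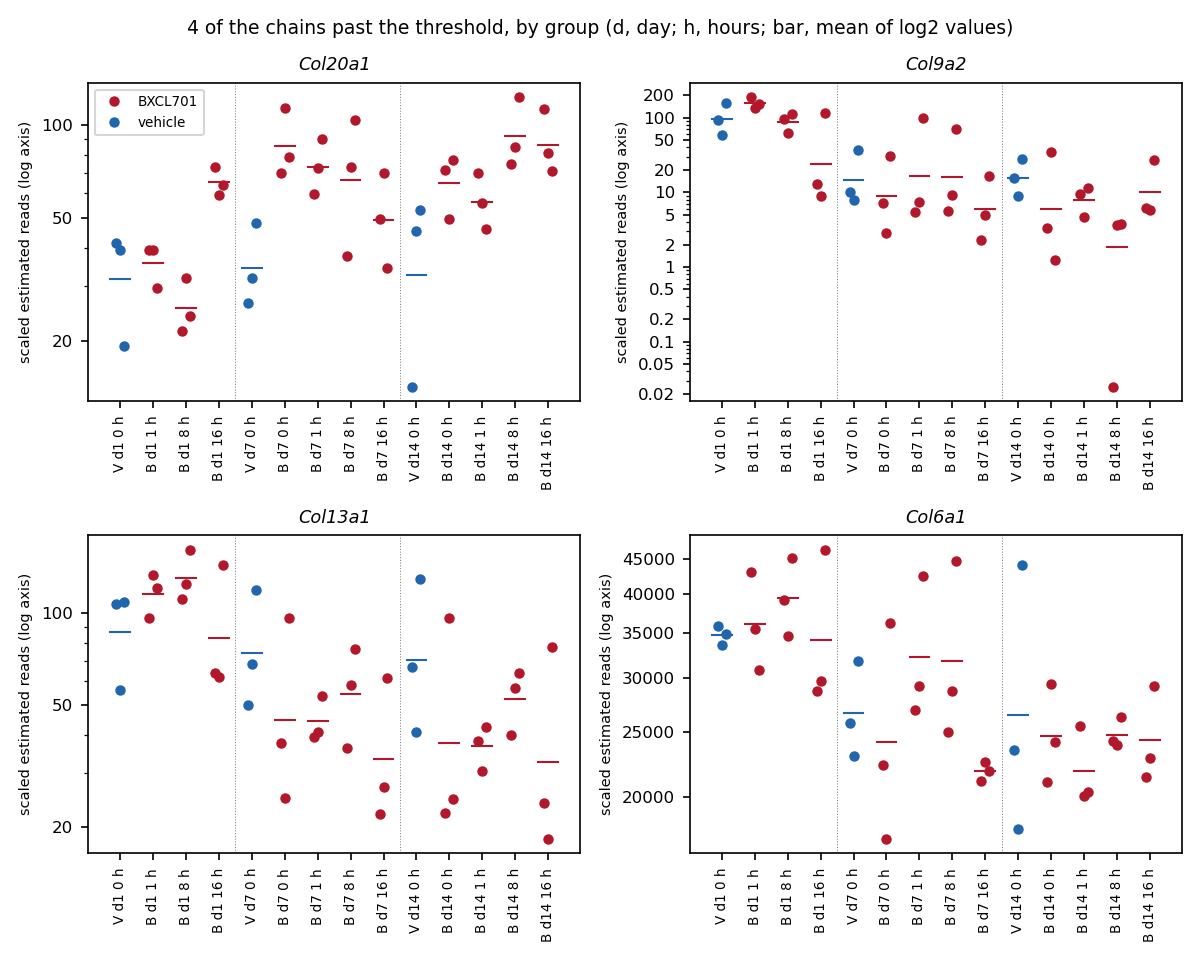
Scaled estimated reads (log axis) of Col20a1, Col9a2, Col13a1 and Col6a1 in each tumour of the 14 groups (B, BXCL701, red; V, vehicle, blue; d, day; h, hours; 3 tumours a group; bar, mean of log2 values). Col20a1 lies at 46.0 to 122 in BXCL701 day 14 tumours and at 14.2 to 53.2 in vehicle day 14 tumours, and Col9a2 is highest in day 1 tumours of both treatments.

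At 0 h of days 7 and 14, where the hour was matched, 0 of 39 chains passed (limma), against 0.512% of all genes. An unadjusted p under 0.05 was found for 5 of the 39 chains and for 1786 of the 16613 genes. Col20a1 came nearest, with 49.4, 74.1 and 113 scaled estimated reads (lowest, median, highest) in 6 BXCL701 tumours, against 14.2, 38.6 and 53.2 in 6 vehicle tumours. Its log2 difference was 1.13 ± 0.28 (adjusted p = 0.0516), and 5 of the 6 BXCL701 tumours lay above every vehicle tumour. Without the third vehicle day 14 tumour it passed, at 1.30 (adjusted p = 0.0076). Col4a1 differed by 0.35 ± 0.15 (adjusted p = 0.388), Col11a2 by 0.46 (0.295) and Col13a1 by -0.80 (0.451). Of the 39 chains 19 were higher and 20 lower.

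On day 7 (hours pooled) 0 of 39 chains passed, and 0.00602% of all genes, a single gene, passed. An unadjusted p under 0.05 was found for 2 chains and for 1640 of the 16613 genes. In BXCL701 tumours 10 chains were higher and 29 lower than in vehicle tumours, with a median log2 difference of -0.28. That median was 0.04 without the third vehicle day 7 tumour and -0.68 without the first. Col20a1 differed by 0.94 ± 0.31 (adjusted p = 0.462), Col4a1 by 0.22 and Col4a2 by 0.21. On the lower side were Col6a3 (-0.46 ± 0.20, adjusted p = 0.493), Col13a1 (-0.75) and Col4a4 (-0.75). On day 1 (1, 8 and 16 h) 0 of 39 chains and 0% of all genes passed. On that day 2 chains had an unadjusted p under 0.05, as did 437 of the 16613 genes. There 35 chains were higher and 4 lower in BXCL701 tumours, with a median of 0.31 and differences such as 0.98 ± 0.44 for Col9a3 (adjusted p = 0.906), 0.43 for Col11a2 and 0.98 for Col4a4. The 4 lower chains included Col6a5 (-0.76), Col9a2 (-0.45) and Col26a1 (-0.34). Without the second vehicle day 1 tumour the day 1 median was -0.0025. That tumour is among the 4 libraries most extreme in transcript-length index (how strongly gene values deviate with log2 exon length). No other day 1 tumour is among them, so leaving out the 4 is the same omission for day 1 and gave the same median.

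The single groups show how Col20a1 ran over time. On day 1 it had 39.5, 39.2 and 29.6 scaled estimated reads at 1 h, 21.5, 32.0 and 24.1 at 8 h and 72.8, 59.4 and 64.0 at 16 h in BXCL701 tumours, against 41.4, 39.4 and 19.3 in vehicle tumours. The 3 tumours at 16 h thus lay above all the others of that day. On day 7 BXCL701 tumours had 69.9, 113 and 78.7 at 0 h, 59.6, 72.6 and 89.6 at 1 h, 37.7, 73.1 and 104 at 8 h and 49.6, 69.9 and 34.4 at 16 h, against 26.5, 32.0 and 48.1 in vehicle tumours. On day 14 they had 71.2, 49.4 and 76.9 at 0 h, 69.9, 55.8 and 46.0 at 1 h, 74.5, 84.6 and 122 at 8 h and 112, 80.8 and 70.9 at 16 h. At no hour taken singly did a chain pass. The share of all genes that passed was 0.783, 0.789, 1.25 and 0.0722% at 0, 1, 8 and 16 h of day 14, 0.301% at 8 h of day 7, 0.012% at 16 h of day 1 and 0% at the other hours. The smallest adjusted p of Col20a1 against vehicle of its day was 0.0542 (day 14 8 h, 1.46 ± 0.39).

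The BXCL701-versus-vehicle difference itself was compared between day 14 and day 7. No chain passed (0 of 39, and 0% of all genes, limma). At an unadjusted p under 0.05 were 2 chains and 2592 of the 16613 genes. The largest by p were Col6a3 (0.81 ± 0.28, adjusted p = 0.211), Col14a1 (1.46 ± 0.53, 0.217) and Col11a2 (0.55) on the higher side, and Col6a2 (-0.39), Col9a2 (-0.95) and Col9a3 (-0.45) on the lower. Without the third vehicle day 14 tumour Col14a1 (2.10, adjusted p = 0.0196) and Col6a3 (1.10, adjusted p = 0.0297) passed. Within BXCL701 tumours, 8 h against 0 h of days 7 and 14 gave 0 of 39 chains (0.132% of all genes). At an unadjusted p under 0.05 it gave 1 chain and 1521 of the 16613 genes. Col18a1 (0.21), Col4a1 (0.18), Col6a2 (0.27), Col6a5 (-1.91 ± 0.86, adjusted p = 0.507), Col15a1 (-0.54) and Col4a6 (-1.24) had the smallest p-values there.

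The second question was how the collagens changed with time under BXCL701. Between day 14 and day 1 at the same hours (1, 8 and 16 h), 5 chains fell and 1 rose, which is 6 of 39, against 1.27% of all genes (0.698% lower and 0.572% higher). The chains that fell were Col9a2 and Col26a1, both low in level, the transmembrane chain Col13a1, the type VI chain Col6a1 and the fibrillar chain Col5a1, and the chain that rose was Col20a1. Of the 39 chains 33 were lower and 6 higher on day 14, with a median log2 difference of -0.86, against -0.0007 over all genes, of which 49.9% were higher. An unadjusted p under 0.05 was found for 25 of the 39 chains and for 3006 of the 16613 genes tested.

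Col9a2, a chain of the cartilage FACIT collagen type IX, had 0.025, 5.74 and 26.8 scaled estimated reads (lowest, median, highest) in 9 BXCL701 day 14 tumours, against 8.87, 113 and 187 in 9 BXCL701 day 1 tumours. The groups overlapped, with 6 of the 9 day 14 tumours below every day 1 tumour. The other type IX chain that passed the filter, Col9a3, had 9.44, 16.4 and 24.9, against 8.86, 17.2 and 28.8 in these tumours. The log2 difference of Col9a2 was -3.43 ± 0.62 (adjusted p = 0.00544), on the scale of the value plus 1. The call held whichever of the 18 libraries was left out (adjusted p 0.00459 to 0.0207). The 3 highest day 1 values of Col9a2 were at 1 h (187, 133 and 154), while at 16 h the tumours had 13, 8.87 and 115. Because most day 14 values were under 10, the fitted size depends on the pseudocount and the processing, and it ran from -4.55 to -2.46 over 28 alternatives.

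Col13a1, a cell-surface collagen, had 18.3, 40.0 and 77.7 in day 14 tumours, against 61.9, 120 and 161 in day 1 tumours, with 7 of 9 below all day 1 tumours. It fell by 1.41 ± 0.31 on the log2 scale (adjusted p = 0.0210), and the call was lost without the third day 1 16 h tumour (adjusted p = 0.0654) or the second day 14 16 h tumour (adjusted p = 0.0647). Col6a1 had 20121, 23881 and 29237 in day 14 tumours, against 28771, 35407 and 46443 in day 1 tumours, with 8 of 9 below all day 1 tumours. The log2 difference was -0.63 ± 0.15 (adjusted p = 0.0300). Its partner Col6a2 differed by -0.73 ± 0.19 and did not pass (adjusted p = 0.052), while Col6a3, the other chain of the common type VI trimer, differed by -0.04 ± 0.15 (adjusted p = 0.905). Both Col6a1 and Col6a2 lay near the threshold: Col6a1 was called in 15 of 28 alternatives, and Col6a2 passed with only the libraries of the comparison (adjusted p = 0.0189), the log2 FPKM table (0.0486) or a transcript-length index as covariate (0.0164).

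Col5a1 had 11465, 14093 and 24295 in day 14 tumours, against 15827, 31086 and 40967 in day 1 tumours, with 6 of 9 below all day 1 tumours (-0.86 ± 0.21, adjusted p = 0.0347). Col26a1 had 0.362, 15.5 and 24.4, against 7.75, 108 and 147, with 4 of 9 below all day 1 tumours (-2.95 ± 0.77, adjusted p = 0.0480). Col20a1 had 46.0, 74.5 and 122, against 21.5, 39.2 and 72.8, with 5 of 9 above all day 1 tumours (0.95 ± 0.22, adjusted p = 0.0279). The BXCL701 day 1 16 h tumours were the high end of that day 1 range.

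Type I and III chains did not pass in this comparison with all libraries and no covariate, although their values were lower on day 14. Col1a1 had 28505, 61756 and 170163 scaled estimated reads in day 14 tumours, against 72319, 192155 and 275862 in day 1 tumours, with 7 of 9 below all day 1 tumours (-1.43 ± 0.41, adjusted p = 0.069). Col1a1 did pass with only the libraries of the comparison (adjusted p = 0.0305) and without the 4 libraries of extreme index (0.048). Neither setting removes a tumour of this comparison, so the difference stayed at -1.43 and only the estimate of spread changed. Col1a1 passed too with the length index as covariate (0.0417) and with fibroblast and pericyte covariates (-0.69, 0.0327). It also passed without the second day 14 8 h tumour (adjusted p = 0.0492) or the third day 14 16 h tumour (0.0303). Col1a2 had 4179, 33030 and 144160, against 30461, 161773 and 242276 (-1.90 ± 0.67, adjusted p = 0.138), and Col3a1 12882, 51464 and 145303, against 39462, 116756 and 193250 (-0.99 ± 0.44, adjusted p = 0.227). The other differences included -1.59 ± 0.60 for Col5a2 (adjusted p = 0.159) and -1.56 ± 0.65 for Col12a1 (0.199), against only -0.17 ± 0.13 for Col4a1 (0.477) and -0.28 ± 0.13 for Col4a2 (0.251). Col11a2 (0.28, adjusted p = 0.314) and Col28a1 (0.78 ± 0.50, 0.413) were among the 6 higher chains. By family, 9 of 10 fibrillar chains were lower (median -1.20), all 6 type VI chains (-0.78), all 4 transmembrane chains (-1.23), 5 of 7 FACIT chains (-0.22) and 3 of 5 type IV chains (-0.17).

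**Figure D4:**
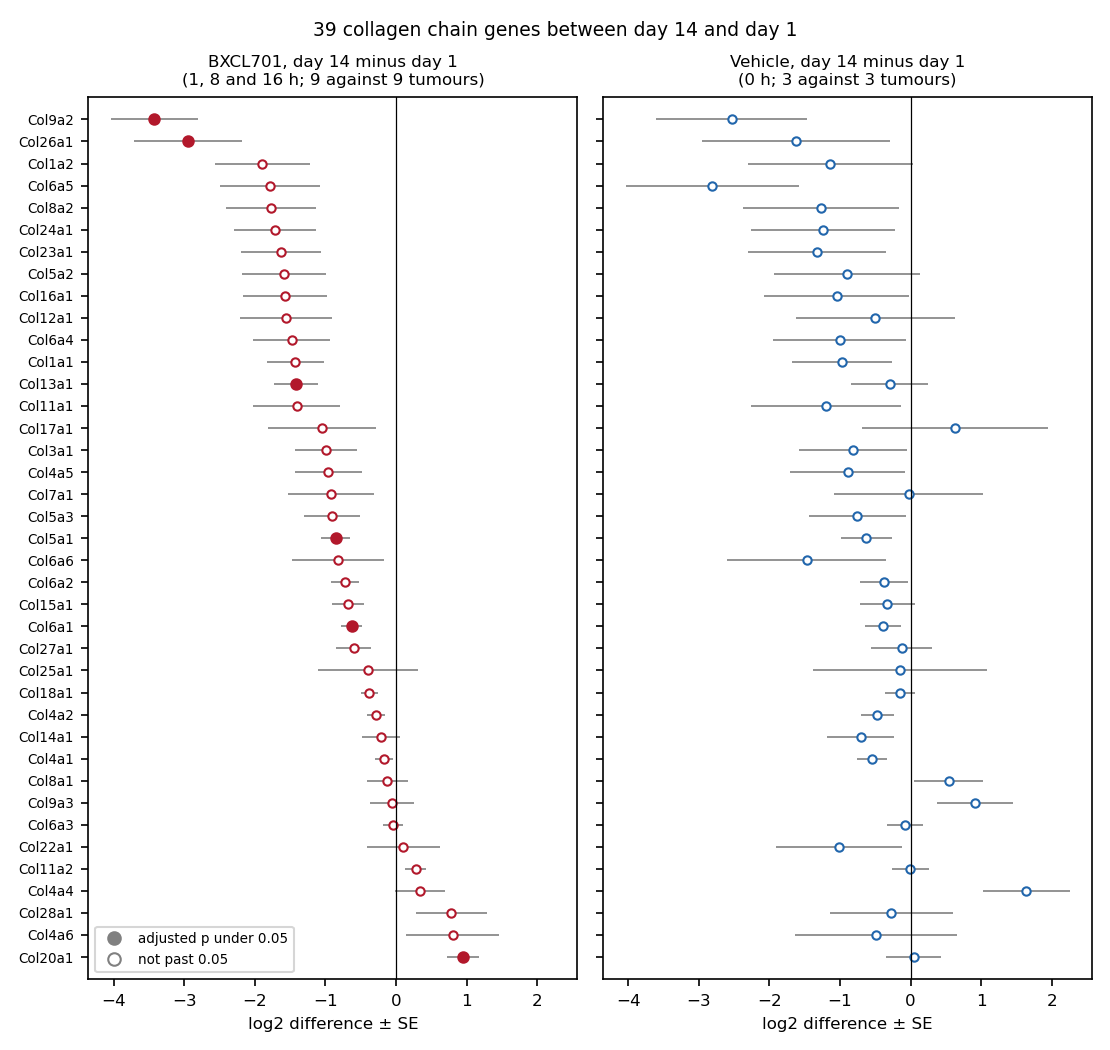
log2 difference with its standard error for the 39 chains between day 14 and day 1, in BXCL701 tumours at 1, 8 and 16 h (left, 9 against 9) and vehicle tumours at 0 h (right, 3 against 3); filled points passed an adjusted p of 0.05. On the left 33 of 39 chains lie below 0 and 6 passed, and on the right 34 of 39 lie below 0 and 0 passed.

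The number of calls depended on single tumours. Leaving out 1 of the 18 libraries gave 1 to 9 called chains. The count was 1 without the third day 1 16 h tumour or the second day 14 16 h tumour, where 53 and 74 of all genes were called in place of 211, and 2 or 3 without any of the 3 day 1 1 h tumours, the first or the third day 1 8 h tumour, the second day 14 1 h tumour, the third day 14 8 h tumour or the first day 14 16 h tumour. Col6a1 remained called in 8 of the 18 fits, Col5a1 and Col26a1 in 5 each and Col20a1 in 9, with adjusted p-values up to 0.101, 0.106, 0.143 and 0.0676.

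In vehicle tumours most chains were also lower on day 14, and none passed. Between vehicle day 14 and day 1, 0 of 39 chains passed (limma, against 0.0602% of all genes). An unadjusted p under 0.05 was found for 5 of the 39 chains and for 1989 of the 16613 genes. Of the chains 34 were lower and 5 higher, and the median log2 difference was -0.55. Col9a2 had 15.4, 8.84 and 28.0 scaled estimated reads in vehicle day 14 tumours, against 92.4, 59.3 and 159 in vehicle day 1 tumours. The log2 difference was -2.53 ± 1.07 (adjusted p = 0.337). Col4a1 had 7817, 7755 and 10417, against 13164, 14246 and 10531 (-0.55 ± 0.22, adjusted p = 0.305). Without the third vehicle day 14 tumour Col4a2 passed (-0.76, adjusted p = 0.0471). Col1a1 differed by -0.97 ± 0.70 (adjusted p = 0.578), Col1a2 by -1.14 and Col3a1 by -0.82, and all 10 fibrillar chains were lower (median -0.86). Col13a1 (-0.30), Col6a1 (-0.39), Col5a1 (-0.63), Col26a1 (-1.62) and Col20a1 (0.04) did not pass, nor did Col4a4 (1.64 ± 0.61, adjusted p = 0.276), Col9a3 (0.91), Col8a1 (0.54) and Col6a5 (-2.81 ± 1.22, 0.352). Whether the day change differs between BXCL701 and vehicle tumours was not tested, since their hours differ.

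Most chains were already lower on day 7. In BXCL701 tumours at 1, 8 and 16 h, 36 of 39 chains were lower on day 7 than on day 1 (median -1.05). None passed (0.12% of all genes), and 24 had an unadjusted p under 0.05, as did 2724 of the 16613 genes. Between day 14 and day 7 23 were lower and 16 higher (median -0.07), and 0 passed (0.012% of all genes). There 0 chains had an unadjusted p under 0.05, against 836 of the 16613 genes. The day 14 and day 7 comparisons share the day 1 tumours. In vehicle tumours 24 chains were lower on day 7 than on day 1 (median -0.21) and 30 on day 14 than on day 7 (median -0.30).

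Marker genes of other cells were read in the same comparison. Between BXCL701 day 14 and day 1, all 11 keratinocyte genes were lower (median -1.91, 0 called), and their sum was 812, 999 and 10110 scaled estimated reads (lowest, median, highest) on day 14, against 708, 1976 and 20999 on day 1. Trp63, at 213 or more in every library, is part of these sums. All 8 pericyte and smooth muscle genes were lower (median -0.45, 0 called), with sums of 16553, 22095 and 44191, against 23872, 34019 and 42353. Of the fibroblast genes 9 of 12 were lower (median -0.39, 0 called), with sums of 38228, 49911 and 93423, against 40747, 66605 and 93128. Skeletal muscle sums ran from 317 to 336254 on day 14, against 1433 to 71462 on day 1, with 8 of 14 genes lower (median -0.33). All 10 adipocyte genes were higher (median 1.12), and Plin4 was called (1.00, adjusted p = 0.0269), with sums of 2397, 5277 and 57423, against 1846, 3329 and 6886. All 10 neutrophil genes were higher (median 1.61), and 7 were called, with sums of 2547, 4721 and 5882, against 1476, 2073 and 6380. Of all genes 0.572% were called higher in this comparison. Camp, Ly6g and Ngp of the neutrophil list were under 10 in 39, 36 and 34 of the 42 libraries. Cartilage and bone genes summed to 1166, 2128 and 2327 on day 14, against 1318, 1819 and 2384 on day 1. Over all libraries Runx2 and Sox9 had medians of 975 and 661, Comp 86.3 and Acan 32.9, and Matn1 and Bglap never reached 10. That sum therefore says little of cartilage content. Endothelial genes summed to 3231, 4872 and 6970 on day 14, against 4887, 6097 and 7230 on day 1. Tumour epithelial genes summed to 20998, 30982 and 48878.5, against 28809, 34269 and 41970. The sums of these lists, and of the macrophage and Schwann cell lists, thus overlapped between the days. Their part in the collagen values was not tested. With the mean levels of the muscle, keratinocyte and adipocyte lists in the model, 1 chain was called, Col9a2, and Col20a1 did not pass (0.91, adjusted p = 0.142). With those of the fibroblast and pericyte lists 5 were called, 4 of them among the 6, and the median over the 39 chains was -0.37 in place of -0.86. Col6a1 (adjusted p = 0.0569) and Col26a1 (0.102) did not pass there, and Col1a1 did.

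Between BXCL701 and vehicle day 14, where Col20a1 was called, 7 of 10 neutrophil genes (median 1.83) and 2 of 9 macrophage genes were called higher. Of all genes 2.26% were called higher there. The neutrophil genes summed to 2547, 4809 and 7461 scaled estimated reads (lowest, median, highest) in BXCL701 tumours, against 1845, 1904 and 2550 in vehicle tumours. All 11 keratinocyte genes were lower (median -1.51, 0 called), with sums of 812, 1038 and 11704, against 1205, 1731 and 24168. These sums too include Trp63, at 213 or more in every library. All 10 adipocyte genes were higher (median 0.91, 0 called), with sums of 2397, 5183 and 57423, against 2076, 5377 and 6235. Fibroblast genes were split, 5 higher and 7 lower (median -0.10). Their part in the Col20a1 value was not tested.

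Genes that make, trim and degrade collagen were read in 5 lists, with 64 of 67 genes tested. Between BXCL701 and vehicle day 14 a single one of the 64 was called, against 3.29% of all genes. It was Mmp8, the neutrophil collagenase, which rose by 2.95 ± 0.42 on the log2 scale (adjusted p = 0.00109; mean log2 level 6.46 against 3.50). At the matched 0 h of days 7 and 14 Mmp8 rose by 2.57 ± 0.38 (adjusted p = 0.00178). Mmp8 is also in the neutrophil list above, and Fap, Dcn, Lum, Postn and Loxl1 are also in the fibroblast list, so the lists share genes. Fap, the drug's fibroblast target, differed by 0.13 ± 0.59 (adjusted p = 0.949) on day 14, Serpinh1 by 0.05, Lox, a cross-linking lysyl oxidase, by -0.91, P4ha1, a prolyl hydroxylase subunit, by -0.01, and the metalloproteinases Mmp2, Mmp9, Mmp13 and Mmp14 by 0.21, -0.18, -1.80 and -0.40. None of these 8 passed. By list, 6 of 18 modification genes were higher (median -0.08), 7 of 11 processing genes (0.04), 6 of 17 degradation genes (-0.15), 5 of 8 receptors (0.32) and 3 of 10 fibril-associated proteoglycans and glycoproteins (-0.16).

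Between BXCL701 day 14 and day 1, 4 of the 64 were called, against 1.27% of all genes. Mmp8 rose by 2.22 ± 0.31 (adjusted p = 0.000209; mean log2 level 6.41 on day 14 against 4.19 on day 1). Mmp14, a membrane-bound collagenase, fell by 0.78 ± 0.18 (adjusted p = 0.0225; 13.95 against 14.73), and Prep, a prolyl peptidase, fell by 0.44 ± 0.10 (adjusted p = 0.0213). Itga10, a collagen-binding integrin subunit, rose by 1.02 ± 0.25 (adjusted p = 0.0348), and in vehicle tumours it differed by 2.07 ± 0.43 (adjusted p = 0.0572). Serpinh1 (-0.82 ± 0.31, adjusted p = 0.159), Mmp9 (-1.08, 0.0868), Mmp13 (-2.97 ± 0.93, 0.0945), Mmp2 (-1.17, 0.257), Fap (-0.53 ± 0.43, 0.528), Lox (0.02) and P4ha1 (0.02) did not pass. Of the lists, 14 of 18 modification genes (median -0.45), 9 of 11 processing genes (-0.53), 13 of 17 degradation genes (-0.68), 4 of 8 receptors (0.02) and 7 of 10 proteoglycans and glycoproteins (-0.43) were lower.

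The type I chains Col1a1 and Col1a2, which assemble in a fixed proportion in the common trimer, were not at a fixed ratio at the RNA level. Col1a1 FPKM over Col1a2 FPKM ran from 0.999 to 6.61 in the 42 libraries, and the higher ratios were in tumours with little Col3a1. The ratio was chosen after its values were seen. Its median was 1.53 in BXCL701 day 14 tumours and 1.16 in BXCL701 day 1 tumours at 1 to 16 h (exact permutation p = 0.127), and 1.60 in BXCL701 day 14 and 1.20 in vehicle day 14 tumours (exact permutation p = 0.554). At 0 h it was 1.52 in BXCL701 and 1.22 in vehicle tumours (exact permutation p = 0.660), and 1.45 on day 7 against 1.16 on day 1 in BXCL701 tumours (exact permutation p = 0.0823). All 4 tests were two-sided, and none passed after adjustment (0.254 to 0.660). Across libraries the log2 ratio had an r of -0.822 (rho -0.803) with the mean of the fibroblast genes, -0.8 (rho -0.645) with that of the muscle genes and -0.476 (rho -0.537) with that of the keratinocyte genes. The adjusted permutation p-values for r were 1.38e-05, 1.38e-05 and 0.00231. These correlations were not among the 15 pairs fixed with the design. Log2 values of Col1a2 varied more than those of Col1a1 over the 42 libraries (SD 1.54 against 0.98). A gene list that both chains follow can then have a negative r with their ratio through that difference alone. The p-values do not separate this from a relation of its own, which was not tested.

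**Figure D5:**
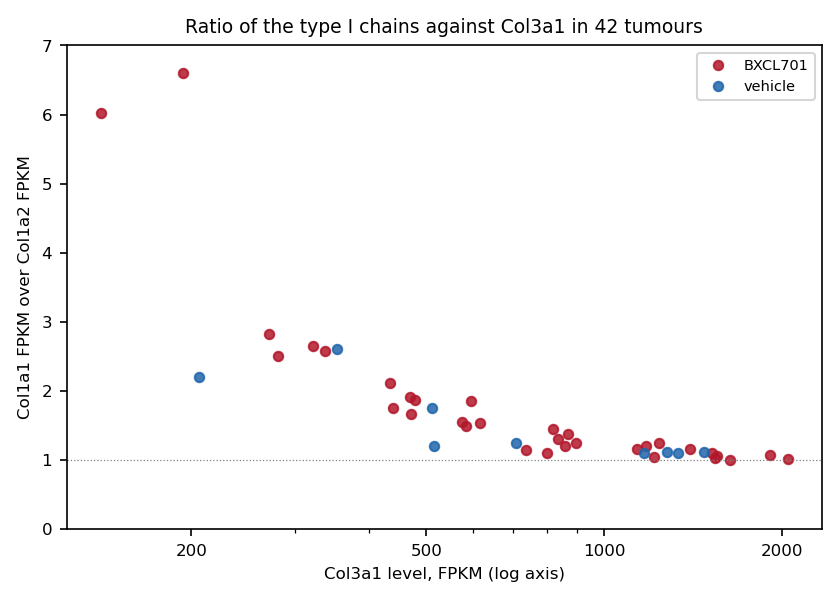
Ratio of Col1a1 FPKM to Col1a2 FPKM against Col3a1 level in FPKM (log axis) in 42 tumours (BXCL701, red; vehicle, blue; dotted line, a ratio of 1). The ratio is near 1 where Col3a1 is high and reaches 6.61 where it is low.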

How the data were processed

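Total RNA of 42 tumours, 14 groups of 3 animals, was sequenced. The submitters' processing notes name Trimmomatic 0.36 and Bowtie 0.12.9 as tools and GRCm38 as the build. Quantifier, annotation, scaling and use of strand: not given in the sources used here. Hence genes that overlap, such as Col4a1 and Col4a2, may share reads. The deposited count table holds a signal of scaled estimated reads per gene, not whole numbers (0.0812% of values above 0 are whole), with library size factors of 0.979 to 1.022. The deposited log2 FPKM table by the authors served to compare levels per length and as an alternative, and a second copy of it was identical. Because the values are not counts, log2(value + 1) was fitted with limma 3.58.1 (R 4.3.3) with 14 group coefficients (28 residual degrees of freedom), an intensity trend and robust variances. Genes with a value of 10 in at least 3 libraries were tested (16613), and p-values were adjusted by Benjamini-Hochberg over all of them with a threshold of 0.05. Contrasts weighted hours equally. Correlations used permutation (Python 3.11.15, NumPy 2.4.6, SciPy 1.17.1, pandas 2.3.3). Positions are from GENCODE M21 and promoters from RefSeq. The fit was tested on simulated data. Members, gene lists and tests were chosen with earlier results of these data known. Chains named with values were those past the threshold, the 3 of smallest p in each direction where fewer passed, and 18 fixed chains. Flg, on 7 lines of the table, was left out of the keratinocyte list. The animals are separate, so p-values measure the spread between animals. Alternatives changed the scaling, the filter, the pseudocount, the libraries, the table and covariates.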

Additional observations from a re-analysis of the deposited data

How the results depend on the processing

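The scaling, filter, table, covariates and libraries were changed in turn. For BXCL701 against vehicle on day 14 the 1 called chain became 2 with median-of-ratios size factors, the log2 FPKM table, a transcript-length index as covariate or without the 4 libraries of extreme index. It became 0 with only the libraries of the comparison, with muscle, keratinocyte and adipocyte covariates or without the 16 h libraries, and 4 with fibroblast and pericyte covariates. At 0 h the 0 became 1 with the log2 FPKM table, the length index or the fibroblast and pericyte covariates. For BXCL701 day 14 against day 1 the 6 became 1 with the muscle, keratinocyte and adipocyte covariates. With the length index Col18a1 (-0.34, adjusted p = 0.0432), Col1a1 and Col6a2 passed in addition. Col1a1 and Col6a2 did so with only the libraries of the comparison or without the 4 of extreme index, and Col6a2 with the log2 FPKM table. None of those 4 is a BXCL701 day 1, BXCL701 day 14 or vehicle day 14 tumour. Leaving them out therefore changed no difference in this comparison or in day 14 against vehicle, only the estimate of spread. Col26a1 and Col5a1 did not pass without the filter, nor Col6a1 without the 16 h libraries. Over all genes that comparison called 211, but 526 with only its own libraries, 1200 with the length index and 17 with the muscle, keratinocyte and adipocyte covariates; day 14 against vehicle called 547, but 2967 with the length index, 1018 without the 4 extreme libraries, 938 with the fibroblast and pericyte covariates and 1 with only its own libraries. On deviations from group means the r of Col1a1 with Col4a1 was -0.544 and that of Col4a1 with the endothelial list -0.446. Their permutation p-values of 0.00017 and 0.00281 were not adjusted. They are too small, because the deviations were shuffled as if independent after the group means had been removed. The cause of these shifts was not tested. Leaving out 1 library gave 0 to 4 called chains for BXCL701 against vehicle on day 14, 0 to 1 at 0 h, 0 to 0 on days 7 and 1, 1 to 9 for BXCL701 day 14 against day 1, 0 to 1 for vehicle day 14 against day 1, 0 to 0 for 8 h against 0 h, and 0 to 2 for the day 14 minus day 7 difference. Of 28 alternatives for BXCL701 day 14 against day 1, Col9a2 was called in 28, Col13a1 in 25, Col20a1 in 18, Col6a1 in 15, Col5a1 in 13 and Col26a1 in 12; Col20a1 was called in 18 of 25 on day 14 against vehicle. None of these changed sign. In several alternatives they could not, because only the set of genes or the libraries outside the comparison changed. The covariates from fibroblast and pericyte genes, the 16 h and the extreme-index alternatives were chosen after seeing the data. No paired analysis was possible because the labels give no shared replicate numbers and the animals are separate. The files give no read depth, so the precision of chains with values under 10 cannot be stated.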
